A study of Homo sapiens with 6 samples.

Results

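Apoptosis in blood cells runs along a mitochondrial and a receptor route, and the transcription factor p53 can raise genes of either. At the mitochondrion, BH3-only proteins such as PUMA and NOXA bind the pro-survival BCL2 proteins, which frees BAX and its relative BAK1 to form pores in the outer membrane. At the cell surface, FAS and the TRAIL receptors recruit the adaptor FADD and caspase-8, while decoy receptors bind the same ligand without passing the signal on. Described here are 7 genes of these routes, chosen by symbol in the authors' deposited table: BAX, BBC3 (PUMA), PMAIP1 (NOXA) and BNIP3 on the mitochondrial side, and FAS, TNFRSF10B and TNFRSF10D among the receptors. All 7 were present among the 6831 genes of that table.

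The groups were MOLM-13 cells kept for 24 h with 50 nM DEG-35 and MOLM-13 cells kept for 24 h with the solvent DMSO, with 3 RNA-seq libraries each. Every library was labelled WT and came from this established acute myeloid leukaemia line, so the values describe a single line. According to its title, the study concerns DEG-35 as a degrader of IKZF2 and of CK1α, and the comparison asks which genes the compound regulates. CK1α holds p53 in check. For each gene that passed an adjusted p of 0.05 the table holds its log2 fold change with the raw and adjusted p, and no value for any library, so levels, depth and the overlap of the groups cannot be shown. Errors are standard errors (SE) derived from the fold change and p of a gene. The header does not name the numerator. Values are read as DEG-35 over DMSO, and every direction would turn round under the other reading. The labels name no separate cultures within a group of 3 libraries, and the spread behind the p-values may therefore be technical. Without levels the identity of the line could not be checked. Of 9 myeloid marker genes 6 were listed, 5 higher and 1 lower with DEG-35, where 45.3% of all tested genes were listed (21.4% higher, 24.0% lower). CD33 stood at 0.67, CD68 at 0.76 and MPO at -0.36 on the log2 scale in the authors' deposited table. Of 8 markers of T cells, B cells, red cells and fibroblasts 0 were listed. Of an unlisted gene it is not known whether it failed the threshold or was left untested.

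Sequence motifs were counted at the start sites of the genes. Windows of 300 bases, running from 250 bases before to 50 bases after an annotated start, were taken from RefSeq (GRCh38.p14), where 5 of the 7 genes matched, with 7 windows in all. The 4 windows printed are examples, each with 1 motif known as background for a factor of these pathways: a pair of p53 half-sites in FAS, the E-box CACGTG in BAX, the hypoxia-response core ACGTG or GCGTG in BNIP3, and TGACG, the core bound by ATF and CREB factors, in PMAIP1. In each window capitals mark only the motif just named for that gene, on either strand. Motifs of the other kinds stand in lower case and are counted below. On the other strand TGACG reads CGTCA and GCGTG reads CACGC. Each sequence runs 5′ to 3′ along its gene.
FAS, chr10:88991181-88991480, plus strand: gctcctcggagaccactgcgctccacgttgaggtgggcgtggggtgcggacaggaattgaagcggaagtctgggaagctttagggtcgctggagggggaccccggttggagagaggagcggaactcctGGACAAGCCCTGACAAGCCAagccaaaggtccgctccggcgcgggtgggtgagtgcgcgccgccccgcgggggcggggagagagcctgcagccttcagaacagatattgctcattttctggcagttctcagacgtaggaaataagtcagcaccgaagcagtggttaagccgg
BAX, chr19:48954625-48954924, plus strand: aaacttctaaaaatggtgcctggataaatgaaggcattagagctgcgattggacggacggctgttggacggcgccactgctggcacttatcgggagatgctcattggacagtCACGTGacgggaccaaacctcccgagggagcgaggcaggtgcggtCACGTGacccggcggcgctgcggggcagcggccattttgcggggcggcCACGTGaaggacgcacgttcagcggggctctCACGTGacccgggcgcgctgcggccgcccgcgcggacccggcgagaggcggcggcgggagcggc
BNIP3, chr10:131981874-131982173, minus strand: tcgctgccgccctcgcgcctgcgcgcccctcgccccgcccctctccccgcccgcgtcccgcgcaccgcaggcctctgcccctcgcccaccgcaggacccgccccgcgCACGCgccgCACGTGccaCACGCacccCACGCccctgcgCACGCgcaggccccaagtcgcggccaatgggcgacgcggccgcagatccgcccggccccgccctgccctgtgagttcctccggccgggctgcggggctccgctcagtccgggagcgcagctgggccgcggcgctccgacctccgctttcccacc
PMAIP1, chr18:59899746-59900045, plus strand: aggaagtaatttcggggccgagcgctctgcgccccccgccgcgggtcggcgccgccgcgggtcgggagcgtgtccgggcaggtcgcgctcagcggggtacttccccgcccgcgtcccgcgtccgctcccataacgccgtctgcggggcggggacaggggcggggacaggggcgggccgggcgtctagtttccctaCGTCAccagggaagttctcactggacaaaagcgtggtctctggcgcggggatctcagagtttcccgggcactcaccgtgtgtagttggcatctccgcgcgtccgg

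The FAS window held a p53 half-site joined without a spacer to a second half-site, the 20 bases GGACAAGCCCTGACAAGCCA, with 2 mismatches to the consensus in all. Of the 35116 windows in the RefSeq table, 7.82% held such a pair with at most 2 mismatches and a spacer of at most 13 bases, and 6.63% held an exact half-site. The 3 annotated FAS starts gave 1 exact half-site between them, in the window printed, and the window at chr10:88990664-88990963 held another pair with 2 mismatches and a spacer of 11 bases. No exact half-site and no such pair stood in the windows of BAX, BBC3, BNIP3 and PMAIP1. The BAX window held the E-box 4 times. An E-box of these letters was present in 7.26% of all windows, and in 0.0142% of them (5 windows) at least 4 times. That cut-off was the count of the BAX window itself, as the one for BNIP3 below is its own. Windows were not matched for GC content, so both shares are descriptions only. The BNIP3 window, with a GC content of 80.7%, held the hypoxia-response core 6 times counting both strands, a number reached by 0.923% of all windows, and 2 of these matches overlap as the opposite strands of an E-box. The BAX window held the same core 9 times, mostly within its E-boxes, and the windows of BBC3 and PMAIP1 and the FAS window printed held it 2 times each, so it was present at all 5 genes. Of all windows 21.4% held the first form of the core, 36.5% the second and 48.4% either. The ATF and CREB core stood 1 time each in the PMAIP1 and BAX windows, against a presence in 24.6% of all windows. The BBC3 window (chr19:47232618-47232917, minus strand) held 1 E-box and no ATF and CREB core. The TATA box TATAAA was absent from all 7 windows and present in 11.5% of all windows. A match describes letters in a window and is not evidence of binding. Sequence outside these windows was not searched, so absence from a window does not mean that a gene lacks a site.

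Of the 7 genes, 5 were higher and 2 lower with DEG-35. The higher ones were the pore-former BAX, the BH3-only gene BBC3 and all 3 receptor genes, and the lower ones were the BH3-only gene PMAIP1 and the mitophagy receptor gene BNIP3. All 7 passed, as does every gene of this table. Of the 15064 genes that the adjusted p-values imply were tested 45.3% passed, 21.4% as higher and 24.0% as lower. Listing alone therefore sets a gene little apart. The 7 genes were chosen with earlier results of these data known, so the medians that follow are descriptions and not tests. The median log2 fold change of the 7 genes was 0.79, against -0.19 for the 6831 listed genes. The median absolute change was 0.98 for the 7 genes and 0.47 for the table. A change of at least 1 on the log2 scale was reached by 3 of them (BAX, TNFRSF10B and BBC3, all higher), a size that 8.30% of the tested genes reached, 4.23% as higher and 4.08% as lower. No direction among the 7 turned when all log2 fold changes were shifted by 0.3 either way, the smallest absolute change being 0.52.

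**Figure D1:**
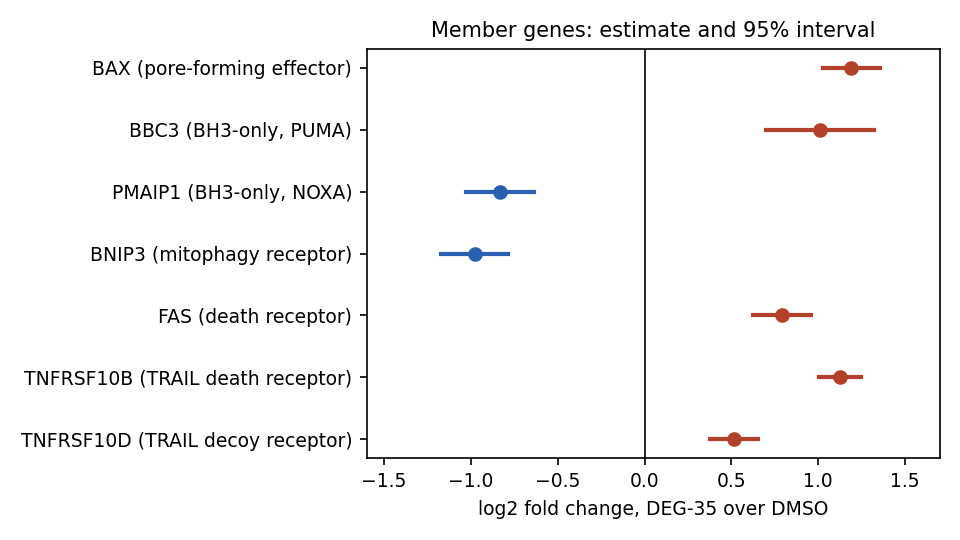
Log2 fold change of each of the 7 genes, DEG-35 over DMSO, with the 95% interval from the implied SE as a line (3 libraries per group). The intervals of PMAIP1 and BNIP3 lie wholly below 0 and those of the other 5 genes wholly above it, with BAX highest at 1.19 and BNIP3 lowest at -0.98.

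On the mitochondrial side, BAX and BBC3 were higher. BAX, whose product forms the pores through which cytochrome c leaves, was 2.28-fold higher with DEG-35, at a log2 fold change of 1.19 ± 0.0838 (implied SE, adjusted p = 2.73e-44 in the authors' deposited table). This exceeded the change of 85.3% of the 3218 higher genes. BBC3 encodes PUMA, which can bind all the main pro-survival BCL2 proteins. It was 2.01-fold higher, at 1.01 ± 0.159 in the authors' deposited table (adjusted p = 1.72e-09). Its SE was the highest of the 7, above that of 81.5% of the table, and its 95% interval ran from 0.70 to 1.32. BAX exceeded BBC3 by 0.18 on the log2 scale, with a 95% interval of -0.17 to 0.53 that holds 0.

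PMAIP1 went the other way. It encodes NOXA, a BH3-only protein that binds chiefly MCL1, and in the authors' deposited table it was 1.78-fold lower with DEG-35 (-0.83 ± 0.0992, adjusted p = 6.58e-16). That is a larger fall than 78.0% of the 3613 lower genes showed. The 95% interval of PMAIP1, from -1.03 to -0.64, shares no value with that of BBC3. The difference between the log2 fold changes of BBC3 and PMAIP1, which are both BH3-only genes known as p53 targets, was 1.84 (95% interval 1.47 to 2.21).

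BNIP3 had the larger of the 2 falls. Its product sits in the outer mitochondrial membrane, marks mitochondria for autophagy and is known for its induction by hypoxia through HIF-1. The authors' deposited table gave it as 1.97-fold lower, at -0.98 ± 0.0995 (adjusted p = 1.40e-21), a larger fall than that of 82.5% of the lower genes. Of the 50-base stretches of BNIP3 coding transcripts in GENCODE release 29, 10.8% also occur in transcripts of other genes, mainly the pseudogene BNIP3P1, which shares 10.6%. The sources used here do not say how such reads were assigned, and their part in the value was not tested. For the other 6 genes that share was at most 1.69%, in TNFRSF10B.

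All 3 receptor genes rose. TNFRSF10B encodes DR5, a TRAIL receptor with a death domain, and was 2.18-fold higher with DEG-35 (1.13 ± 0.0613 in the authors' deposited table). Its adjusted p of 1.66e-73 was the smallest of the 7 genes and its p ranked 249 in the table, with an SE above that of only 6.56% of the listed genes. FAS, the receptor of FAS ligand, was 1.73-fold higher, at 0.79 ± 0.0861 in the authors' deposited table (adjusted p = 6.45e-19). TNFRSF10D encodes a TRAIL receptor with a truncated death domain that acts as a decoy. It was 1.43-fold higher (0.52 ± 0.0718, adjusted p = 7.33e-12 in the authors' deposited table), close to the middle of the higher genes, of which 51.2% changed less. The log2 fold change of the death receptor TNFRSF10B exceeded that of the decoy TNFRSF10D by 0.61 (95% interval 0.43 to 0.80).

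Ordered by log2 fold change, the genes ran BAX, TNFRSF10B, BBC3, FAS, TNFRSF10D, PMAIP1 and BNIP3. Several neighbours in this order did not differ beyond their error, when the errors of different genes are taken as independent, which libraries shared by all genes need not give. BAX exceeded TNFRSF10B by 0.065 (95% interval -0.14 to 0.27), TNFRSF10B exceeded BBC3 by 0.12 (-0.22 to 0.45) and BBC3 exceeded FAS by 0.22 (-0.14 to 0.57). PMAIP1 and BNIP3 differed by 0.15 (-0.13 to 0.42). FAS exceeded TNFRSF10D by 0.28 (0.056 to 0.50). Of the 21 pairs among the 7 genes, 16 had an interval that excluded 0, without adjustment for the number of pairs, and among those 16 were all 10 pairs of a higher with a lower gene.

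**Figure D2:**
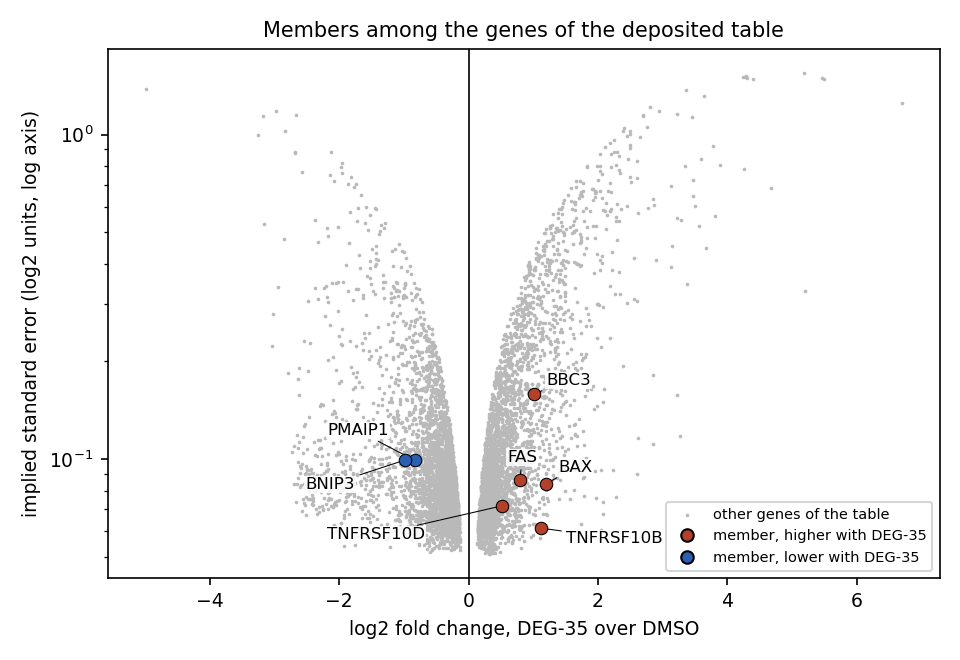
Log2 fold change (DEG-35 over DMSO) against implied SE on a log axis for the listed genes that have one, with the 7 genes as large points. BBC3 has the largest SE of the 7 at 0.159 and TNFRSF10B the smallest at 0.0613, near the lower edge of the table, whose median is 0.0891.

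The rest of the BCL2 family gave no common direction. Here and below, the lists were also chosen with earlier results of these data known, so their shares and medians are descriptions and not tests. The share of a list is over all its genes, tested or not. The share set beside it is over tested genes only, so the denominators are unlike and list shares may come out lower. Of 6 other BH3-only genes 4 were listed (66.7%, against 45.3% of all tested genes). Of these 4, 2 were higher and 2 lower (33.3% of the list each, against 21.4% and 24.0%). BMF rose by 0.57 ± 0.105 and BIK by 0.20 ± 0.0877 on the log2 scale in the authors' deposited table, the rise of BIK being 1 that a shift down by 0.3 would turn. BID, which caspase-8 cleaves to link the receptor to the mitochondrial route, stood at -0.39 ± 0.0747 and BAD at -0.50 ± 0.194 in the authors' deposited table. The other 2, BCL2L11 (BIM) and HRK, were not listed, and neither were BAK1 and BOK, the relatives of BAX. Of 6 pro-survival genes 1 was listed (16.7%, against 45.3% of all tested genes). It was BCL2A1, at 1.27 ± 0.376 (adjusted p = 0.00231 in the authors' deposited table). BCL2, BCL2L1 (BCL-XL), MCL1, BCL2L2 and BCL2L10 were not listed, so no statement on their change can be made.

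Listed genes of the complex that forms at the receptors were higher, while 2 other receptor and decoy genes were lower. Of 10 genes of the death-inducing complex 4 were listed (40%, against 45.3% of all tested genes). All 4 were higher (40% of the list, against 21.4% of all tested genes), with a median of 0.29. However, 3 of them would turn lower with a shift down by 0.3. CFLAR encodes FLIP, which blocks caspase-8 at the receptor, and had the largest of these changes, at 0.56 ± 0.0712 (adjusted p = 4.39e-14 in the authors' deposited table). PEA15, whose product binds death effector domains, stood at 0.30 ± 0.0684 and CASP8 itself at 0.24 ± 0.0833 in the authors' deposited table. FADD, TRADD and RIPK1 were not listed. The TRAIL gene TNFSF10 was the 1 listed gene among 5 death ligand genes (20%, against 45.3% of all tested genes). It was higher by 0.50 ± 0.160 in the authors' deposited table (adjusted p = 0.00509), and 21.4% of all tested genes were higher. FASLG and TNF were not listed. Of 7 other death receptor and decoy genes 2 were listed (28.6%, against 45.3% of all tested genes). Both were lower (28.6%, close to the 24.0% of all tested genes). They were TNFRSF21, which encodes DR6, at -0.41 ± 0.108 and TNFRSF6B, which encodes the soluble decoy DcR3 for FAS ligand, at -1.50 ± 0.444 in the authors' deposited table. The 2 other TRAIL receptor genes, TNFRSF10A and TNFRSF10C, were not listed.

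Listed genes of the apoptosome list, which holds caspases outside the receptor complex, were lower with 1 exception. Of 11 genes 6 were listed, 5 of them lower (45.5%, against 24.0% of all tested genes), with a median of -0.40. With a shift up by 0.3, 1 of the 5 would turn higher. CASP2 stood at -0.67 ± 0.0645 and the cytochrome c gene CYCS at -0.41 ± 0.0637 in the authors' deposited table. CASP9, the initiator that the apoptosome activates, was that exception, 2.39-fold higher at 1.25 ± 0.166 (adjusted p = 4.59e-13 in the authors' deposited table). APAF1, whose product is the scaffold of the apoptosome, was not listed. Among 10 genes of inhibitors of apoptosis and their antagonists, 4 were listed (40%, against 45.3% of all tested genes). They went 2 in each direction (20% each, close to the 21.4% higher and 24.0% lower of all tested genes). BIRC5 (survivin, which also acts in mitosis) was 5.57-fold lower (-2.48 ± 0.0752), HTRA2 was lower at -0.34 ± 0.0954, and XAF1 and BIRC6 were higher at 0.49 ± 0.0723 and 0.36 ± 0.0638 in the authors' deposited table. XIAP and DIABLO were among the 6 not listed.

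Other p53 targets linked to cell death were mostly higher, as were BAX, BBC3 and the receptors. Of 15 such genes 11 were listed, 9 higher (60.0%, against 21.4% of all tested genes) and 2 lower, with a median of 0.67. A shift down by 0.3 would turn none of the 9. However, AEN at 0.302 ± 0.0682 and SHISA5 at 0.302 ± 0.0879 in the authors' deposited table would barely keep their sign. ZMAT3, an RNA-binding protein gene, stood at 2.08 ± 0.0739, TP53INP1, whose product acts in autophagy and cell death, at 3.27 ± 0.118 and the mitochondrial ferredoxin reductase gene FDXR at 1.54 ± 0.127 in the authors' deposited table. EI24 at -0.24 ± 0.0649 and SIVA1 at -1.57 ± 0.366 were lower in the authors' deposited table, so PMAIP1 was not the sole listed gene of this kind to fall. EI24 would turn higher with a shift up by 0.3. TP53AIP1, PIDD1, PERP and IGFBP3 were not listed. Of 11 genes for p53 and its regulators 5 were listed (45.5%, close to the 45.3% of all tested genes). Of the 11, 3 were higher (27.3%, against 21.4%) and 2 lower (18.2%, against 24.0%). MDM2, whose product degrades p53, had the smallest adjusted p of these, at 1.74 ± 0.0631 in the authors' deposited table. MDM4 stood at 0.26 ± 0.0683 and CSNK1A1, which encodes CK1α, at 0.18 ± 0.0613 in the authors' deposited table, and both would turn lower with a shift down by 0.3. The p53 relative TP73 was 4.32-fold lower (-2.11 ± 0.125, adjusted p = 8.46e-62 in the authors' deposited table). TP53BP2 was lower at -0.19 ± 0.0666 in the authors' deposited table and would turn with a shift up by 0.3.

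BNIP3 fell in the same cells as many hypoxia genes. Of 26 HIF-1 pathway genes 18 were listed, 15 of them lower (57.7%, against 24.0% of all tested genes) and 3 higher, with a median of -0.37, and 2 of the 15 would turn higher with a shift up by 0.3. LDHA, the lactate dehydrogenase subunit, stood at -0.83 ± 0.0644, PFKFB4, a regulator of glycolysis, at -1.74 ± 0.143 and the hexokinase gene HK2 at -0.59 ± 0.0619 in the authors' deposited table. BHLHE40 at 0.46 ± 0.0731, ARNT, the partner of HIF-1α, at 0.23 ± 0.0666 and MXI1 at 0.22 ± 0.0704 were higher in the authors' deposited table, and the rises of ARNT and MXI1 would turn with a shift down by 0.3. HIF1A, named after its value had been seen, was lower at -0.37 ± 0.0753 in the authors' deposited table. Many of these genes also serve glycolysis, and RNA values do not measure the activity of HIF-1. A part of HIF-1 in the fall of BNIP3 was not tested. Of 13 BNIP family and mitophagy receptor genes 8 were listed, 6 higher (46.2%, against 21.4% of all tested genes) and 2 lower, and 2 of the 6 would turn lower with a shift down by 0.3. The close paralog BNIP3L (NIX) was lower at -0.28 ± 0.0936, a fall that would turn with a shift up by 0.3, and BNIPL was lower at -1.84 ± 0.577 in the authors' deposited table. OPTN at 0.61 ± 0.101, BCL2L13 at 0.39 ± 0.0664 and CALCOCO2 at 0.27 ± 0.0692, which encode other mitophagy receptors, were higher in the authors' deposited table.

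PMAIP1 and TNFRSF10B are also known targets of the integrated stress response factors ATF4 and CHOP, and moved in opposite directions here. Of 10 ATF4 and CHOP genes 7 were listed, 5 lower (50.0%, against 24.0% of all tested genes) and 2 higher, with a median of -0.51, and none of the 7 would turn with either shift. ATF4 itself stood at -0.46 ± 0.0531, the asparagine synthetase gene ASNS at -0.93 ± 0.0698 and the chaperone gene HSPA5 at -0.51 ± 0.0541 in the authors' deposited table. XBP1 at 0.48 ± 0.0591 and PPP1R15A at 0.51 ± 0.102 were higher in the authors' deposited table. DDIT3, which encodes CHOP, was not listed. The list also holds HSPA5, XBP1 and ERN1, genes of the wider stress response to unfolded proteins, and does not measure the activity of ATF4 and CHOP. Their part in the changes of PMAIP1 and TNFRSF10B was not tested. In the 13 lists together 71 of 132 genes were listed (53.8%, against 45.3% of all tested genes). Of the 71, 34 were higher and 37 lower, where 21.4% of all tested genes were higher and 24.0% lower.

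**Figure D3:**
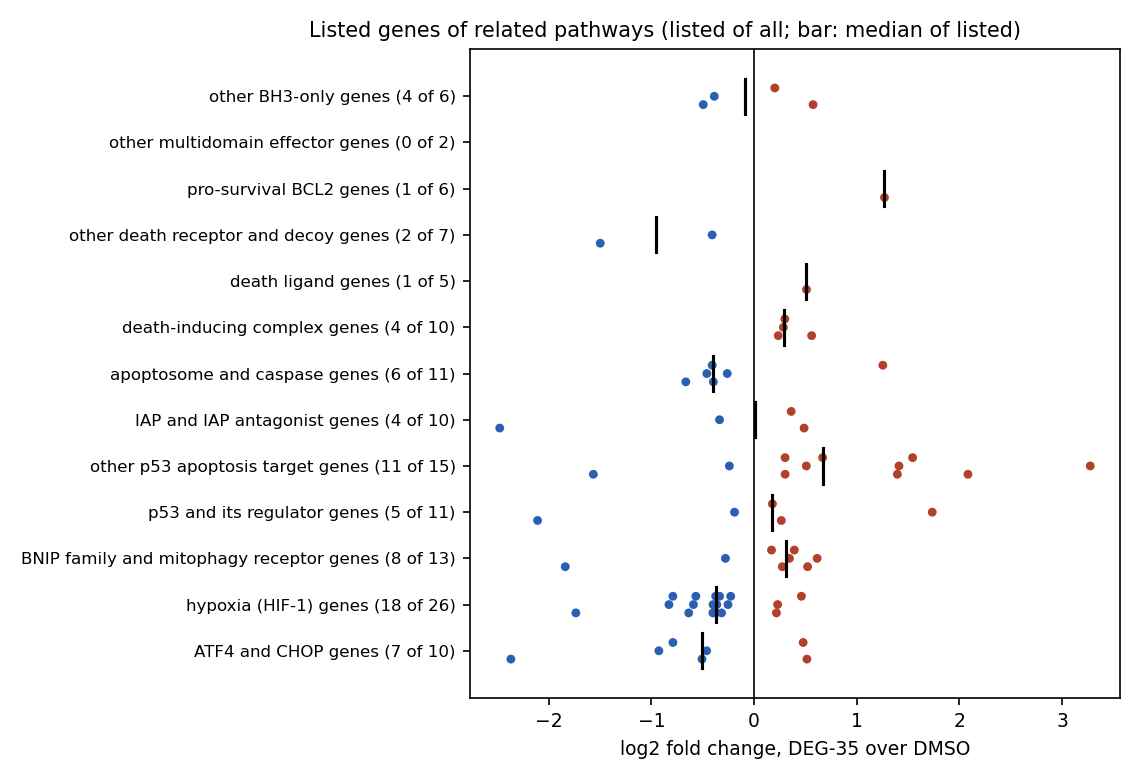
Log2 fold change (DEG-35 over DMSO) of each listed gene of 13 related groups, with the number listed of all genes in the group in brackets and a bar at the median of the listed genes. Hypoxia genes lie mostly below 0, at a median of -0.37, and other p53 apoptosis targets mostly above it, at a median of 0.67.

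The genes beside the 7 on their chromosomes went in both directions. Within 50 kb of the 7 genes RefSeq places 14 other protein-coding genes, of which 10 were listed, 4 higher and 6 lower. Of all tested genes 45.3% were listed, 21.4% as higher and 24.0% as lower. BBC3 rose while its neighbours fell: SAE1, a subunit of the SUMO-activating enzyme, stood at -1.03 ± 0.0612, CCDC9 at -0.36 ± 0.139 and INAFM1 at -0.81 ± 0.290 in the authors' deposited table. Beside BAX, the ferritin light chain gene FTL rose by 0.14 ± 0.0550 and the glycogen synthase gene GYS1 by 0.39 ± 0.0676, and RUVBL2 was lower at -0.29 ± 0.108 in the authors' deposited table. A shift by 0.3 would turn FTL and RUVBL2. PPP2R2D, next to BNIP3, was lower at -0.36 ± 0.0726 in the authors' deposited table. PMAIP1 had no protein-coding neighbour within this distance.

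FAS lies head to head with ACTA2, the smooth muscle actin gene and itself a known p53 target, on the other strand. ACTA2 was higher by 2.60 ± 0.0901 and ACTA2-AS1 by 2.62 ± 0.116 in the authors' deposited table, both more than FAS, and STAMBPL1 beyond them was lower at -0.62 ± 0.170. Exons of ACTA2 cover 380 of the 4253 exon bases of FAS in GENCODE release 29 (8.93%). The sources used here do not say whether counting used strand, and the part of shared reads in the FAS value was not tested. TNFRSF10B and TNFRSF10D lie in a cluster of 4 TRAIL receptor genes, of which these 2 were listed and TNFRSF10C and TNFRSF10A, the genes beside TNFRSF10D, were not. RHOBTB2, whose exons overlap 67 bases of TNFRSF10B exons (1.30%), stood at 0.22 ± 0.0795 in the authors' deposited table and would turn lower with a shift down by 0.3.

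**Figure D4:**
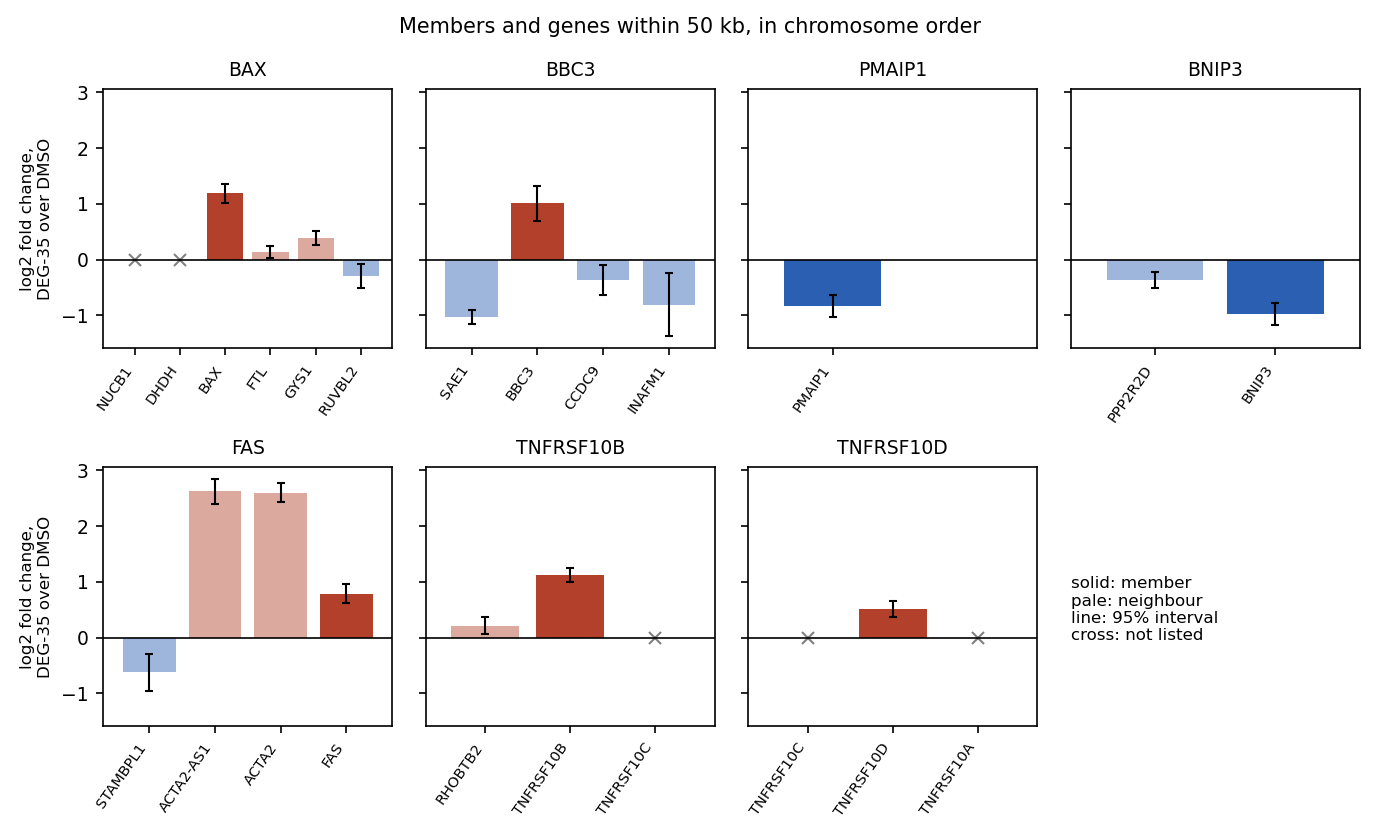
Log2 fold change (DEG-35 over DMSO) with its 95% interval for the 7 genes (solid bars) and for the neighbours within 50 kb that are protein-coding or listed (pale bars), in chromosome order, with crosses for genes not listed. BBC3 stands at 1.01 between neighbours below 0, and FAS at 0.79 beside ACTA2 and ACTA2-AS1 at 2.60 and 2.62.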

How the data were processed

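The authors deposited 1 table of their comparison. Its columns are, per the file headers, the log2 fold change, the p-value and its adjusted form. The submitters' processing notes name STAR, featureCounts, DESeq2 and the build hg19, without versions or options. The libraries were made from total RNA with an mRNA kit, per the labels' protocols. Groups (3 DEG-35 and 3 DMSO libraries) come from the sample titles. The table has no counts, so depth is unknown and no new test per gene was run: a call is the authors' adjusted p below 0.05.

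From these values an SE was derived, assuming a Wald test: the size of the change over the z-score that matches its two-sided p. The 95% intervals follow from it. The number of tests (15064) is the median of adjusted p times rank over p for 2789 genes with a p above 1e-04. These steps were tested on simulated data drawn under the same Wald assumption, which checks the arithmetic and not that assumption. The 7 genes and the 13 lists were chosen with earlier results of these data known. From each list up to 3 listed genes per direction with the smallest adjusted p are named, and genes within 50 kb of the 7. Some genes that this rule takes are not reported here. Symbols were matched exactly or through RefSeq synonyms (1 gene, ERO1A). GENCODE release 29 and RefSeq windows are on GRCh38, and no coordinate was set against the hg19 table. Alternatives were an adjusted p of 0.01, a minimum change of 1, other adjustments, a maximum SE of 0.2, exact symbols and shifts by 0.3. Computation used SciPy 1.17.1, NumPy 2.4.6 and pandas 2.3.3 under Python 3.11.15, and figures Matplotlib 3.10.9.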

Additional observations from a re-analysis of the deposited data

How the results depend on the processing

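All 7 genes stayed listed, 5 higher and 2 lower, with an adjusted p of 0.01, Benjamini-Hochberg adjustment over the table, Bonferroni adjustment over 15064 tests, an implied SE of at most 0.2, exact symbols and shifts of all log2 fold changes by 0.3 down or up. The shift could be applied to listed genes only. Some of these settings could not change the count. The largest p of the table, 0.0227, is below 0.05, so adjustment over the table drops no gene. The 7 genes were chosen by exact symbol. Their smallest absolute change, 0.52, exceeds the shift of 0.3. With a minimum absolute log2 fold change of 1 the 7 became 3, all 3 higher and 0 lower, by construction: FAS (0.79), TNFRSF10D (0.52), PMAIP1 (-0.83) and BNIP3 (-0.98) lie below that size. Of the 71 listed genes of the 13 lists (34 higher, 37 lower), 15 (8 higher, 7 lower) reached that size, and 38 (18 higher, 20 lower) passed Bonferroni adjustment, both being stricter settings. No replicate could be left out, since the table holds no values per library. No paired analysis was possible because the table carries no values per library, although both groups number their libraries 1 to 3.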

Other observations

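Grouped by symbol after the values had been seen, genes of the TNF receptor and ligand families and of the caspases showed the following. Family shares are over all symbols of a family, tested or not, unlike the shares of all tested genes set beside them. Of 21 protein-coding symbols of the form TNFRSF with a number, 10 were listed (47.6%, close to the 45.3% of all tested genes). Of these, 5 were higher and 5 lower (23.8% of the family each, close to the 21.4% and 24.0% of all tested genes). Beside the receptors described above, TNFRSF14 (HVEM) stood at 1.05 ± 0.334, TNFRSF13C (the BAFF receptor) at 0.51 ± 0.211 and TNFRSF9 (4-1BB), with a wide error, at 2.50 ± 1.01 in the authors' deposited table. TNFRSF1B, the second TNF receptor, was lower at -0.51 ± 0.0953, TNFRSF19 at -0.63 ± 0.132 and TNFRSF12A (the TWEAK receptor) at -0.45 ± 0.199 in the authors' deposited table.

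Of 11 protein-coding symbols of the form TNFSF with a number, 5 were listed (45.5%, close to the 45.3% of all tested genes). All 5 were higher (45.5% of the 11 symbols, against 21.4% of all tested genes), with a median of 0.92 on the log2 scale, and none of them would turn with a shift down by 0.3. Next to TNFSF10 these were TNFSF13 (APRIL) at 0.92 ± 0.0763, TNFSF9 (the 4-1BB ligand) at 1.01 ± 0.0872, TNFSF13B (BAFF) at 0.52 ± 0.0764 and TNFSF4 (the OX40 ligand) at 1.39 ± 0.358 in the authors' deposited table. Of 11 caspase genes by symbol 9 were listed (81.8%, against 45.3% of all tested genes). Higher were 5 (45.5%, against 21.4%) and lower 4 (36.4%, against 24.0%). The inflammatory caspase genes CASP1, at 0.21 ± 0.0900, and CASP4, at 0.22 ± 0.0735, were higher in the authors' deposited table and would turn lower with a shift down by 0.3.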
